A study of Mus musculus with 18 samples.

Results

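The clustered replication-dependent histone genes were followed in cultured and transplanted mouse fibroblasts. Members were the protein-coding genes of the count table whose symbol starts with Hist1h, Hist2h, Hist3h or Hist4h, the names of an older annotation. This rule found 59 of the 38924 genes in the table. They encode the linker histone H1 (6 genes) and the core histones H2a (18 genes), H2b (15 genes), H3 (7 genes) and H4 (13 genes). The Hist1 group holds 47 of them, between positions 21715763 and 23934851 of chromosome 13 (GRCm38). The Hist2 group holds 9 on chromosome 3, between positions 96219865 and 96269141, while 2 members lie on chromosome 11 and 1, Hist4h4, on chromosome 6. Another 8 genes that fit the rule in GENCODE release 21 were not analysed here.

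These genes make most of the histone protein that packages new DNA, and they are transcribed mainly in S phase under the coactivator NPAT. Their mRNAs usually carry no poly(A) tail. They end just after a short stem-loop, which is bound by the stem-loop binding protein SLBP and guides both processing and decay of the mRNA. Some of the genes can also give longer, polyadenylated transcripts in cells that do not divide, and most replacement histones, encoded elsewhere, are made throughout the cell cycle.

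Fibroblasts were grown for 10 days from the heart (HF), kidney (KF) and tail (TF) of 10-week-old male Rosa mT/mG mice on a C57BL/6 background, in which all cells carry the tdTomato reporter. The cells were then placed on gelatin foam beneath the renal capsule of C57bl6/j hosts, syngeneic with the donors and aged 10 to 11 weeks, for 3 days (HFs, KFs and TFs), or kept in culture for 3 additional days (HFc, KFc and TFc). Live CD45-;TdTomato+ cells were recovered from the hosts by sorting, so the host kidney contributed the environment of every transplanted group. Each of the 6 groups had 3 libraries, sequenced as single-end reads of 75 bases. The paper names a kit for total RNA, and no poly(A) selection, for cells isolated from the kidney capsule. It does not name the kit of their cultured controls separately. The labels state triplicates and the paper calls them biological replicates, but neither says whether these came from separate animals, so p-values measure the spread between these libraries.

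The stem-loop is shown first because it sets these transcripts apart. Of 47 members whose gene model continues for at least 16 bases after the stop codon, 41 (87.2%) hold a stem-loop there, against 12 of 20369 other protein-coding genes (0.0589%). The most frequent form, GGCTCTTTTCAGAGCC, is found in 23 members, followed by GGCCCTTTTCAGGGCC in 7 and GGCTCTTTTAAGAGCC in 5. Below, 1 example of each class with a stem-loop and a Hist2 gene with another form are given 5′ to 3′ in the 3′ UTR on the coding strand, with the stem and loop in capitals. They lie at chr13:23739507-23739532 (Hist1h1c, plus strand), chr13:21833026-21833049 (Hist1h2ap, minus strand), chr13:22036295-22036320 (Hist1h2bk, plus strand), chr13:23752815-23752840 (Hist1h3b, plus strand), chr13:23757361-23757386 (Hist1h4b, plus strand) and chr3:96262934-96262959 (Hist2h4, minus strand) of GRCm38.
Hist1h1c: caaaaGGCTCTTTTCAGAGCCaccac
Hist1h2ap: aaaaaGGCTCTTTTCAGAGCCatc
Hist1h2bk: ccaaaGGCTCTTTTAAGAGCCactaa
Hist1h3b: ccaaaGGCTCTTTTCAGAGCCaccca
Hist1h4b: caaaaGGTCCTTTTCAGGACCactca
Hist2h4: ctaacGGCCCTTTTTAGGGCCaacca
In the annotation used, the models of Hist1h1a and Hist1h2bc hold sequence after the stop codon but no stem-loop. That of Hist1h1b has no sequence there in which to look.

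The promoters differ by class. Windows of 300 bases (250 before to 50 after the start) came from RefSeq on GRCm38.p6 and matched 55 of the 59 members. Letters were searched on both strands, and a match is a description of the sequence only. The letters ATTTGCAT, the octamer motif, are in 20% of the members' windows and 1.74% of all 32851 windows, and the variant ATTTGAAT in 23.6% and 1.25%. At least 1 of these forms is in 12 of 18 H2a and 10 of 13 H2b windows and in none of the H1, H3 or H4 windows. Many H2a and H2b genes are neighbours on opposite strands with overlapping windows, so 1 motif can be counted for both. Hist1h2ah (window chr13:22035594-22035893) and Hist1h2bk (window chr13:22035571-22035870) are such a pair. The H2a and H2b counts are therefore not independent. CCAAT is in 83.6% of the members' windows against 37.4% of all windows, and TATAAA is in 58.2% against 13.6%. CCAAT is present in every H1, H2a, H2b and H3 window but in 3 of 12 H4 windows. AAACACA, which can overlap TATAAA through the letters AAA, is in 5 of 6 H1 windows and 7.18% of all windows. The 150 bases before the start are given for Hist1h1b (chr13:21780626-21780775, minus strand) and Hist1h2bk (chr13:22035671-22035820, plus strand), which rose in transplanted kidney fibroblasts and show the H1 and H2b layouts. Capitals mark the motifs named above on either strand, so that ATTGG marks the reverse complement of the CCAAT letters. The first holds the H1 motif and a TATA motif, and the second holds the octamer.
Hist1h1b: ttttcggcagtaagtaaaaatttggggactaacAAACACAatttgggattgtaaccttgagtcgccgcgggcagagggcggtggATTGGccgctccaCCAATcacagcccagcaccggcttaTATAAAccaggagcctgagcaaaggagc
Hist1h2bk: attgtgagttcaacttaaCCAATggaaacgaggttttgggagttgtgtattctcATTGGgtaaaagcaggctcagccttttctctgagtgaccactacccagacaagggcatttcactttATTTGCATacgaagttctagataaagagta

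Library totals lay between 17927838 and 32245168 counts, and the members took 8198 to 36518 of them (0.0406% to 0.117% of a library). One library went against its label. In KFs replicate 3, Xist was at 1492 CPM against 0.0535 to 0.404 CPM in the other 17 libraries, and 4 Y-linked genes summed to 0.722 CPM against 175 to 229.9 CPM, although the donors are labelled male. Its library name also lacks the replicate code that the others carry. The main kidney counts, totals and member changes are therefore given with and without it, and the other kidney values include it. Markers of fibroblasts summed to between 22140 and 161600 CPM in all 18 libraries. KFs replicate 3 stood apart from its group there too, with a fibroblast sum of 30140 CPM against 103700 and 80330 CPM, a leukocyte sum of 13.8 CPM against 139 and 110.2 CPM, and the tubule gene Cdh16 at 58.8 CPM against 7.56 and 4.52 CPM in the other two, and the part of these differences in the kidney results was not tested. Levels are CPM, in which each library was brought to a common total with TMM scaling. Many members are near copies of each other, and in 26 of them fewer than 50% of the 75-base windows of the transcript are found in no other transcript, so their counts depend on how reads were shared out.

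The summed level of all members moved in opposite directions in heart and kidney fibroblasts. It was 478, 474 and 478 CPM in KFc and 769.9, 1170 and 659 CPM in KFs, a ratio of means of 1.82 with no overlap (2.04 without KFs replicate 3). In heart it was 688, 659 and 687 CPM in HFc against 493, 447 and 548 CPM in HFs, a ratio of 0.732 with no overlap. Tail libraries overlapped, with 579, 594 and 555 CPM in TFc and 1038, 558 and 477 CPM in TFs (ratio 1.2). Without TFs replicate 1 the tail ratio was 0.898, so its direction rests on that library. In bulk RNA, a different share of cells in S phase and a different amount of histone mRNA per cell cannot be told apart.

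**Figure D1:**
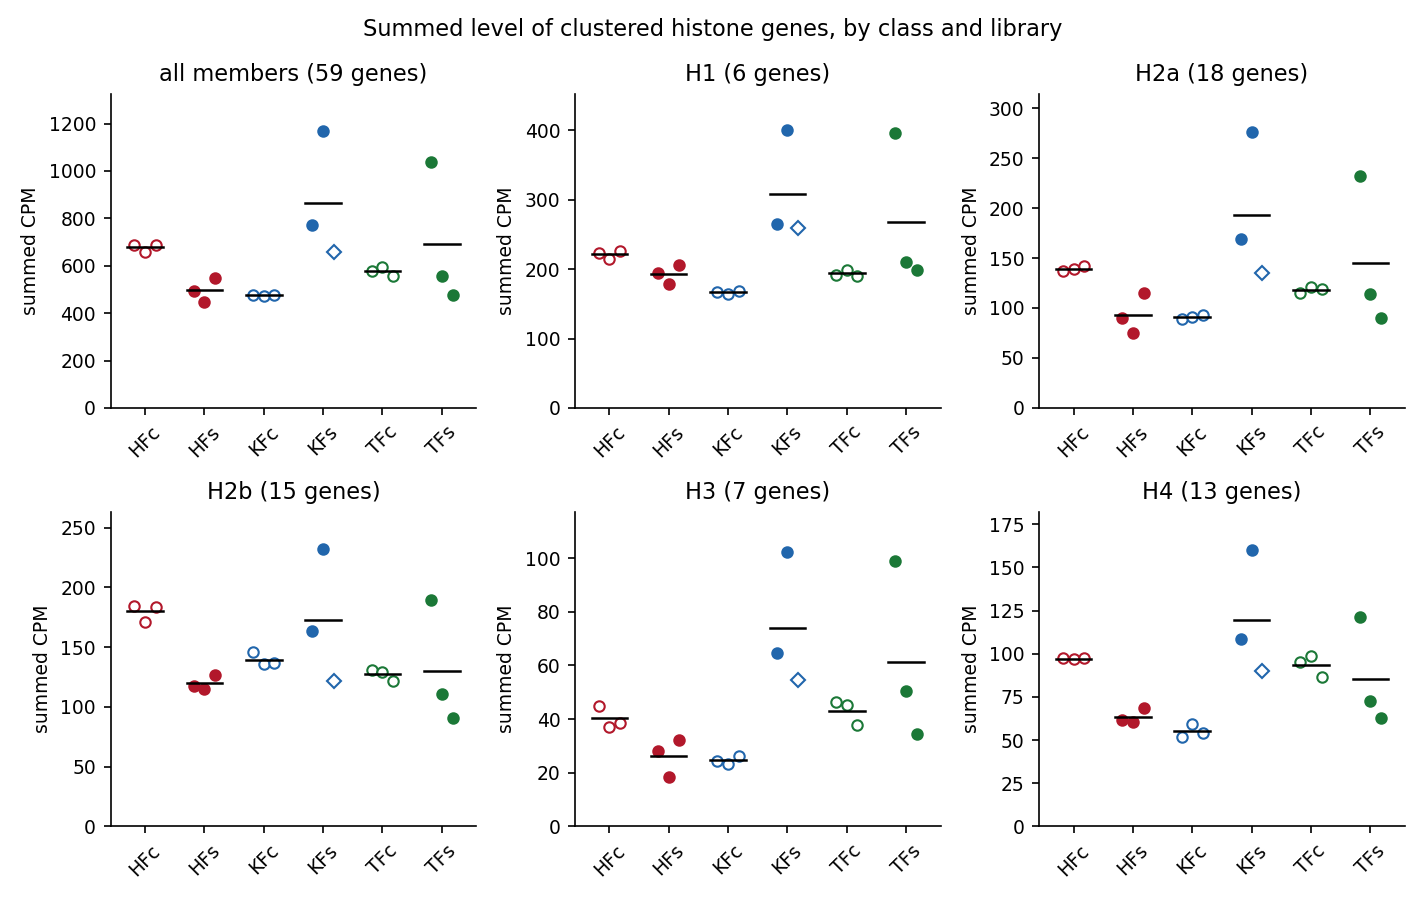
Summed level (CPM, linear axis) of all members and of each class in every library; open circles are cultured and filled circles transplanted libraries, the open diamond is KFs replicate 3, and bars are group means. KFs lies above KFc except for H2b, HFs lies below HFc in every panel, and TFs replicate 1 stands above the other tail libraries.

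Class by class, the kidney ratio of means was 3.00 for H3, 2.17 for H4, 2.12 for H2a, 1.85 for H1 and 1.24 for H2b. The H2b totals overlapped between KFc (146, 136 and 137 CPM) and KFs (163.5, 232 and 121 CPM), whereas those of the other classes did not. Without KFs replicate 3 the ratios ran from 3.39 for H3 to 1.42 for H2b, with H2a and H4 both at 2.44. The heart ratios lay between 0.651 for H3 and 0.873 for H1, with no overlap in any class. These totals are a description and carry no test.

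Gene by gene, the kidney comparison asked which members changed when kidney fibroblasts were returned to a kidney. Of 55 members with enough counts, 38 rose and 1 fell in KFs against KFc at an adjusted p under 0.05 and a log2 fold change past 1 (edgeR's quasi-likelihood test, Benjamini-Hochberg adjustment over 16577 genes). Across all genes tested, 14.7% rose and 7.99% fell. The median log2 fold change was 1.72 for the members and 0.09 for all genes. By class, 5 of 6 H1, 12 of 17 H2a, 8 of 13 H2b, 6 of 6 H3 and 7 of 13 H4 genes rose. The class medians were 2.16 for H2a, 1.99 for H1, 1.72 for H3, 1.67 for H2b and 1.31 for H4. This order differs from that of the class totals, in which abundant genes weigh more. Without KFs replicate 3, 39 rose and 1 fell with a median of 1.93, while 12.9% of all genes rose. Without KFs replicate 3, the log2 fold change was 2.88 for Hist1h1b, 2.53 for Hist1h1a, 2.31 for Hist1h2ap, 1.98 for Hist1h2bk, 3.52 for Hist1h2bp, 1.77 for Hist1h3b, 1.88 for Hist1h4b and 3.77 for Hist1h4j, all past the threshold. It was -1.72 for Hist2h2aa2 and -0.60 for Hist1h2bc. Without KFs replicate 2, the library with the highest total, 31 rose and 2 fell.

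**Figure D2:**
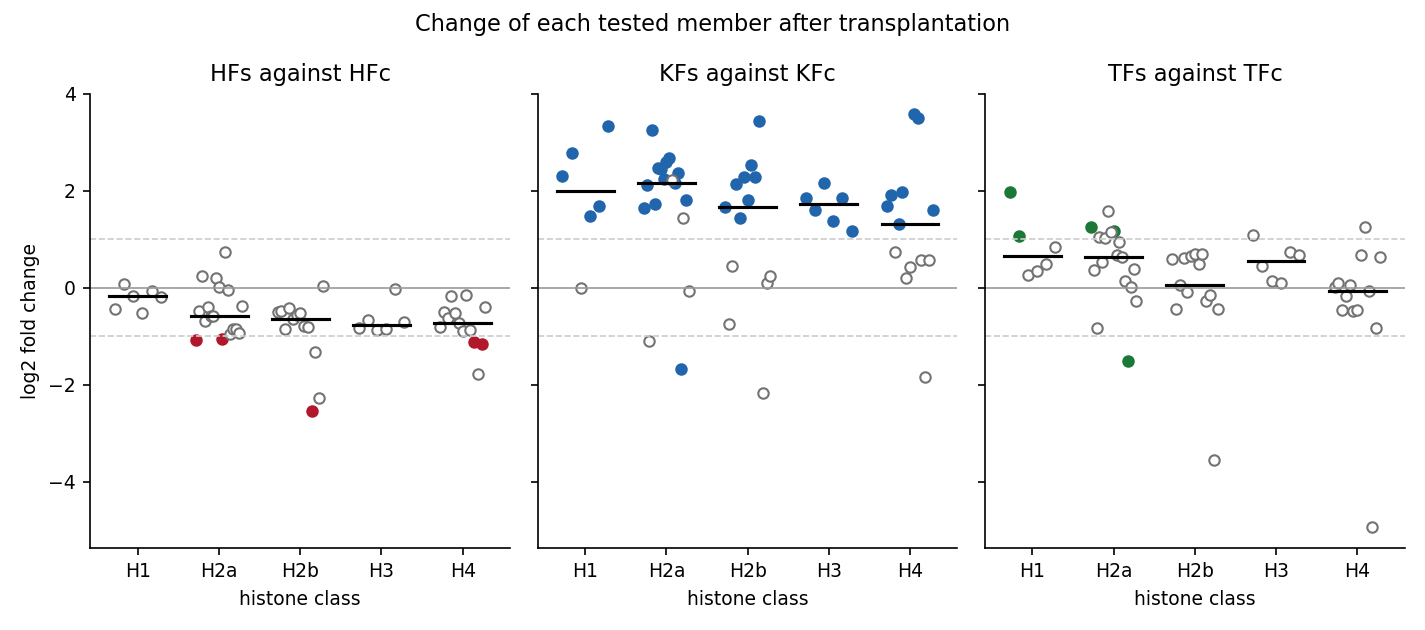
Log2 fold change of each of the 55 tested members in the 3 transplant comparisons, by histone class; filled points passed the threshold, black lines are class medians and dashed lines mark a log2 fold change of 1 and -1. In kidney 38 points pass above and 1 below, in heart 5 pass below, and in tail 4 pass above and 1 below.

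Among the H1 genes, which encode the histones that bind linker DNA between nucleosomes, Hist1h1b rose most firmly. Its level was 5.82, 5.62 and 6.45 CPM in KFc and 32.7, 58.0 and 31.6 CPM in KFs, a log2 fold change of 2.77 (SE 0.37, adjusted p = 2.21e-05, edgeR's quasi-likelihood test). Every KFs library lay far above every KFc library. In tail it was 12.4, 15.4 and 12.4 CPM in TFc and 48.3, 19.9 and 16.4 CPM in TFs (log2 fold change 1.07, SE 0.35, edgeR adjusted p = 0.0255). The tail groups do not overlap, but TFs replicate 1 is far above the rest, and without it the log2 fold change of Hist1h1b was 0.44 (adjusted p = 0.256). The tail call was also lost without TFc replicate 1 (1.01) and without TFc replicate 3 (0.996). In heart the values were 12.3, 11.7 and 13.2 CPM in HFc and 13.95, 7.93 and 17.1 CPM in HFs, and the groups overlap (log2 fold change 0.07).

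Hist1h1a, another H1 gene, rose in both kidney and tail. It was at 3.51, 5.34 and 5.45 CPM in KFc and 22.7, 34.1 and 13.6 CPM in KFs (log2 fold change 2.30, SE 0.45, edgeR adjusted p = 6.01e-04). In TFc it was at 4.30, 4.16 and 4.38 CPM and in TFs at 32.2, 10.1 and 8.48 CPM (log2 fold change 1.98, SE 0.45, edgeR adjusted p = 0.00282). Neither pair of groups overlaps, and without TFs replicate 1 the tail rise was 1.12 (adjusted p = 0.0211). Heart values overlapped, at 12.7, 11.7 and 10.6 CPM in HFc and 7.88, 5.68 and 12.1 CPM in HFs.

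Hist1h1c, the most abundant H1 gene per length of transcript, did not follow them in kidney. It was at 111, 111 and 114 CPM in KFc and at 104, 129 and 102 CPM in KFs (log2 difference -0.01, SE 0.12, edgeR adjusted p = 0.976). These groups overlap. Its share of the H1 total went from 67.3% ± 0.698 (SD, n = 3) in KFc to 37.0% ± 4.13 in KFs. In heart it was at 119, 117 and 124 CPM in HFc and 106, 110 and 105 CPM in HFs (log2 -0.17, edgeR adjusted p = 0.249). In tail it was at 90.4, 94.6 and 95.3 CPM in TFc and 141, 98.0 and 97.9 CPM in TFs (log2 0.27, edgeR adjusted p = 0.0922). The groups do not overlap in either organ, but neither difference passed the test. Hist1h1d and Hist1h1e rose in kidney by 1.48 and 1.68 on the log2 scale. The testis-type Hist1h1t also passed the test, but it had 1, 2 and 1 counts in KFc, all under the floor of 3 counts, and 11, 34 and 0 counts in KFs, so no fold is given.

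**Figure D3:**
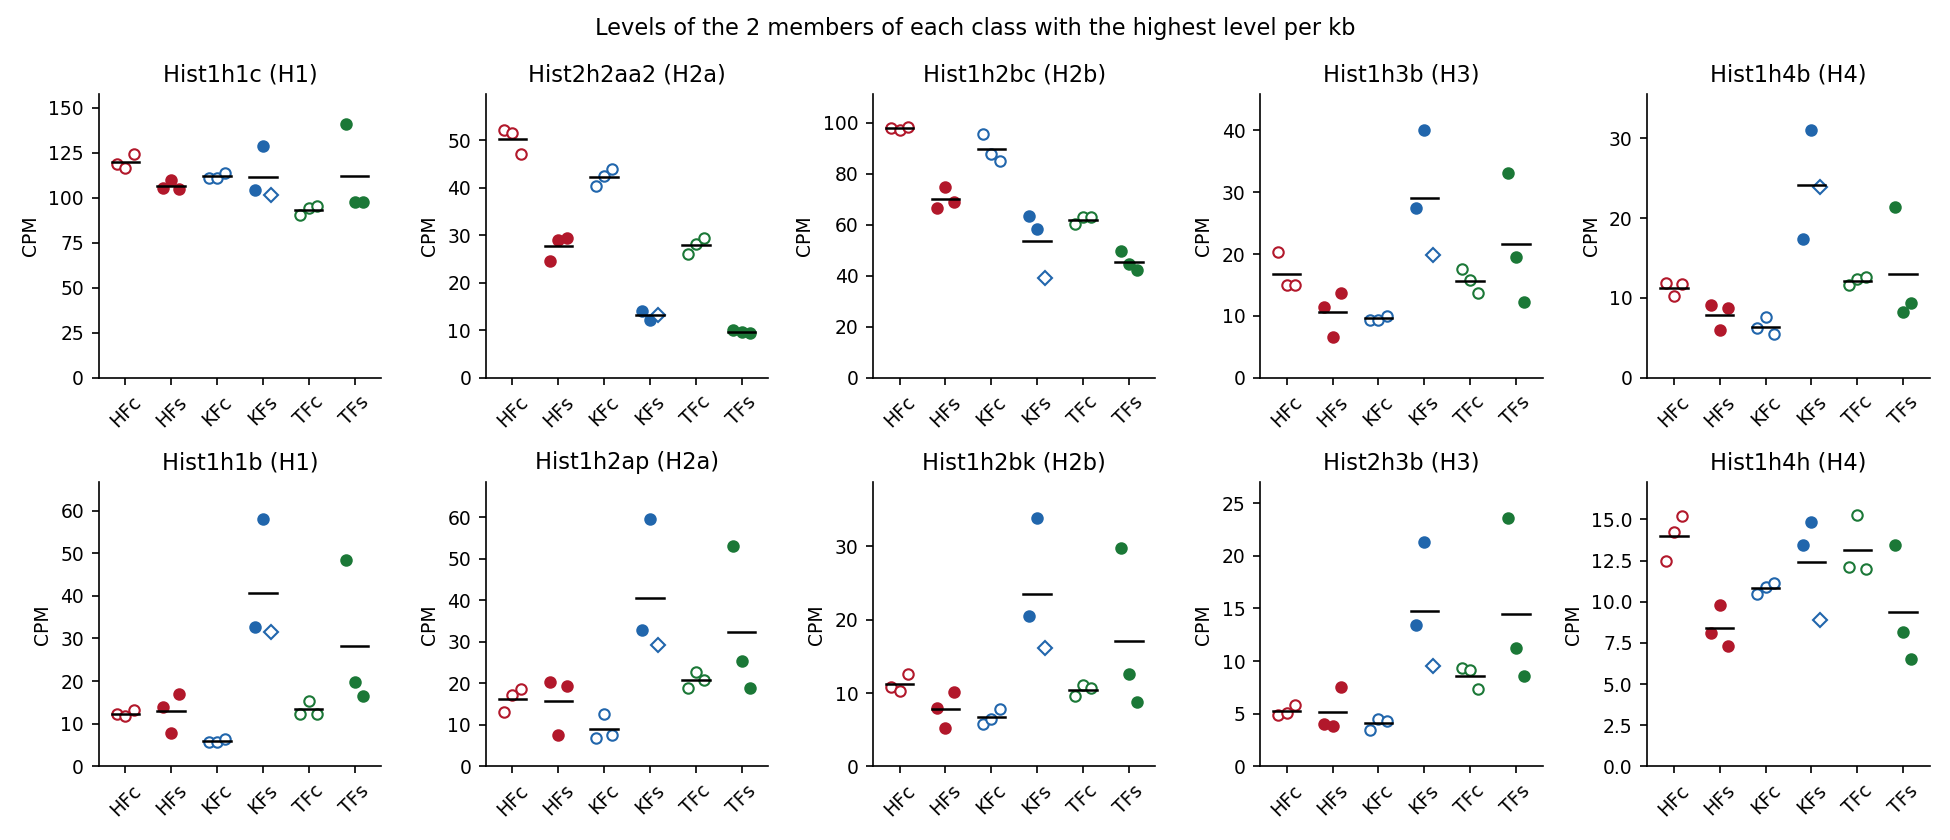
Level (CPM, linear axes that differ between panels) of the 2 members of each class with the highest level per kb, in every library; open circles are cultured and filled circles transplanted libraries, the open diamond is KFs replicate 3, and bars are group means. Hist1h1b, Hist1h2ap, Hist1h2bk, Hist1h3b, Hist2h3b and Hist1h4b are higher in every KFs than in every KFc library, whereas Hist2h2aa2 and Hist1h2bc are lower.

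Among the H2a genes, which form a dimer with H2B at the rim of the nucleosome, Hist2h2aa2 was the single member that fell past the threshold in kidney and in tail. Its level was 40.3, 42.5 and 43.9 CPM in KFc and 14.2, 12.2 and 13.3 CPM in KFs (log2 fold change -1.67, SE 0.09, edgeR adjusted p = 3.61e-09). In tail it was 26.1, 28.2 and 29.3 CPM in TFc and 10.0, 9.63 and 9.5 CPM in TFs (log2 -1.52, SE 0.09, edgeR adjusted p = 2.07e-08). In heart it was 52.2, 51.4 and 47.0 CPM in HFc and 24.6, 29.1 and 29.5 CPM in HFs (log2 -0.86, SE 0.09, edgeR adjusted p = 1.15e-06), which does not reach the fold limit. No pair of groups overlaps.

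Every 75-base window of Hist2h2aa2 is also found in Hist2h2aa1, so the split of reads between this pair is uncertain. Of the windows of Hist2h2aa1, 88.9% are also found in Gm20634, which is not a member. The sum of the pair may therefore depend on shared reads as well. Hist2h2aa1 was assigned 4.92, 2.48 and 3.42 CPM in KFc and 12.4, 28.7 and 14.3 CPM in KFs (log2 fold change 2.36, edgeR adjusted p = 6.14e-04), the opposite direction. The sum of the pair was 45.2, 44.99 and 47.3 CPM in KFc and 26.6, 41.0 and 27.7 CPM in KFs. The summed pair is therefore lower in each KFs library than in each KFc library, with a smaller gap than for Hist2h2aa2 alone. Its share of the H2a total was 50.3% ± 0.941 (SD, n = 3) in KFc and 17.1% ± 3.07 in KFs. In heart the pair summed to 58.8, 61.6 and 59.3 CPM in HFc and 29.5, 32.1 and 36.4 CPM in HFs. In tail it summed to 36.8, 39.6 and 42.9 CPM in TFc and 33.6, 18.4 and 16.5 CPM in TFs.

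Hist1h2ap followed the majority of H2a genes. It was at 6.97, 12.6 and 7.68 CPM in KFc and 32.8, 59.7 and 29.2 CPM in KFs, with no overlap (log2 fold change 2.16, SE 0.42, edgeR adjusted p = 5.28e-04). It was at 18.9, 22.9 and 20.7 CPM in TFc and 53.1, 25.5 and 18.8 CPM in TFs, and at 13.2, 17.2 and 18.6 CPM in HFc and 20.4, 7.58 and 19.3 CPM in HFs. Both of these pairs overlap and neither difference passed the test. With 7.35% of its windows unique, its count is shared with near copies. The H2a changes in kidney ran from -1.67 to 3.26 on the log2 scale, and the highest was Hist1h2ae.

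**Figure D4:**
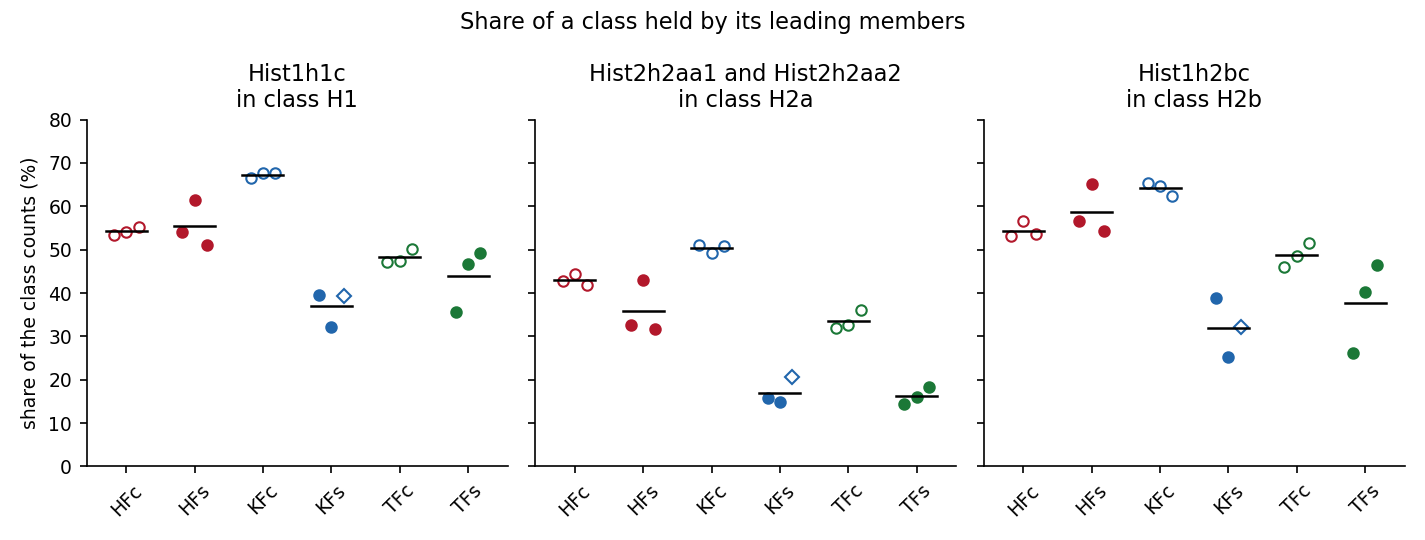
Share (%) of the class total taken by Hist1h1c in H1, by the pair Hist2h2aa1 and Hist2h2aa2 in H2a and by Hist1h2bc in H2b, in every library; open circles are cultured and filled circles transplanted libraries, the open diamond is KFs replicate 3, and bars are group means. In kidney the mean shares were 67.3%, 50.3% and 64.1% in culture and 37.0%, 17.1% and 32.0% after transplantation.

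Among the H2b genes, the partners of H2A in the nucleosome, Hist1h2bc carried the largest part of the class in culture and was lower after transplantation of all 3 fibroblast types. It was at 95.5, 87.9 and 85.2 CPM in KFc and 63.35, 58.4 and 39.0 CPM in KFs (log2 -0.74, SE 0.13, edgeR adjusted p = 2.35e-04). In heart it was at 98.0, 97.0 and 98.4 CPM in HFc and 66.5, 74.8 and 68.8 CPM in HFs (log2 -0.48, edgeR adjusted p = 0.00499), and in tail at 60.2, 62.9 and 63.0 CPM in TFc and 49.7, 44.5 and 42.2 CPM in TFs (log2 -0.45, edgeR adjusted p = 0.0127). No pair of groups overlaps, but none of these differences reaches the fold limit. Its share of the H2b total was 64.1% ± 1.59 (SD, n = 3) in KFc and 32.0% ± 6.80 in KFs.

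Hist1h2bk, whose stem-loop and octamer promoter are printed above, rose in kidney. It was at 5.78, 6.46 and 7.78 CPM in KFc and 20.5, 33.8 and 16.2 CPM in KFs (log2 fold change 1.82, SE 0.37, edgeR adjusted p = 9.33e-04). The groups do not overlap, and 27.4% of its windows are unique. In heart it was at 10.8, 10.3 and 12.6 CPM in HFc and 7.996, 5.20 and 10.1 CPM in HFs (log2 -0.53, edgeR adjusted p = 0.241). In tail it was at 9.56, 11.1 and 10.7 CPM in TFc and 29.8, 12.6 and 8.74 CPM in TFs (log2 0.70, edgeR adjusted p = 0.142).

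Hist1h2bp was low in every library but was the member with the largest fall in heart among those past the threshold. It was at 0.510, 1.73 and 1.67 CPM in HFc and 0.120, 0.0881 and 0.418 CPM in HFs (log2 fold change -2.55, SE 0.90, edgeR adjusted p = 0.0252). Hist1h2bp had 2, 2 and 11 counts in HFs, so 2 of these libraries are under the floor of 3 counts and the size of its fall is uncertain. In kidney it was at 0.224, 0.209 and 0.133 CPM in KFc and 1.42, 3.11 and 1.72 CPM in KFs (log2 fold change 3.44, SE 0.90, edgeR adjusted p = 0.00521). Neither pair of groups overlaps. The heart call was lost without HFc replicate 2, HFc replicate 3, HFs replicate 1 or HFs replicate 2, where the log2 fold change of Hist1h2bp lay between -2.34 and -2.12.

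The H3 genes, whose products form the core tetramer of the nucleosome with H4, rose as a whole class in kidney, with log2 fold changes from 1.17 to 2.17 for the 6 tested. Hist1h3b was at 9.40, 9.39 and 10.1 CPM in KFc and 27.4, 40.1 and 19.8 CPM in KFs (log2 fold change 1.60, SE 0.33, edgeR adjusted p = 9.02e-04). Hist2h3b was at 3.51, 4.54 and 4.29 CPM in KFc and 13.4, 21.3 and 9.5 CPM in KFs (log2 fold change 1.84, SE 0.36, edgeR adjusted p = 6.54e-04). Neither pair of groups overlaps. Hist1h3b was at 20.4, 15.1 and 15.0 CPM in HFc and 11.4, 6.61 and 13.7 CPM in HFs (log2 -0.67, edgeR adjusted p = 0.0933), again with no overlap but without passing the test. The tail values of Hist1h3b overlap, at 17.7, 15.8 and 13.7 CPM in TFc and 33.1, 19.4 and 12.3 CPM in TFs. Hist2h3b overlapped in both other organs, at 4.88, 5.08 and 5.80 CPM in HFc and 4.03, 3.83 and 7.56 CPM in HFs, and at 9.35, 9.18 and 7.37 CPM in TFc and 23.5, 11.2 and 8.61 CPM in TFs. Of the windows of Hist1h3b and Hist2h3b, 41.4% and 21.5% are unique.

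Among the H4 genes, whose products pair with H3, 7 of 13 rose in kidney (8 of 13 without KFs replicate 3), and Hist1h4b was 1 of them. It was at 6.23, 7.57 and 5.45 CPM in KFc and 17.4, 31.1 and 23.8 CPM in KFs, with no overlap (log2 fold change 1.91, SE 0.30, edgeR adjusted p = 1.06e-04). In heart it was at 11.9, 10.2 and 11.7 CPM in HFc and 9.08, 5.95 and 8.77 CPM in HFs (log2 -0.51, edgeR adjusted p = 0.161), and in tail at 11.6, 12.3 and 12.6 CPM in TFc and 21.4, 8.27 and 9.33 CPM in TFs (log2 0.09). Hist1h4h differed from it. It was at 10.4, 10.9 and 11.1 CPM in KFc and 13.5, 14.8 and 8.90 CPM in KFs, and the groups overlap (log2 0.20, edgeR adjusted p = 0.499). In heart Hist1h4h was at 12.5, 14.2 and 15.2 CPM in HFc and 8.12, 9.78 and 7.33 CPM in HFs, with no overlap and a difference under the fold limit (log2 -0.73, edgeR adjusted p = 0.0139). In tail it was at 12.1, 15.3 and 12.01 CPM in TFc and 13.4, 8.18 and 6.53 CPM in TFs, which overlap (log2 -0.49, edgeR adjusted p = 0.106).

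With all libraries, the member with the largest fitted rise in kidney was Hist1h4j, at 0, 0.0698 and 0.166 CPM in KFc and 0.849, 1.54 and 0.641 CPM in KFs (log2 fold change 3.58, SE 0.72, edgeR adjusted p = 7.73e-04). Its level is low, with 0, 2 and 5 counts in KFc, so 2 of these libraries are under the floor of 3 counts and the size of the rise is uncertain. Without KFs replicate 3 it was not the largest. Hist1h2ao, Hist1h2bq and Hist1h4n, each with the largest change in 1 direction of a comparison, did not pass the test. Hist1h2ao had the largest log2 difference upward in heart (0.74, edgeR adjusted p = 0.585), at 0.583, 1.32 and 2.26 CPM in HFc and 1.74, 1.28 and 3.83 CPM in HFs, which overlap. Hist1h2bq had the largest downward in kidney (edgeR adjusted p = 0.109), with 37, 58 and 94 counts in KFc and 0, 43 and 0 counts in KFs, so no fold is given. It passed the test only without KFs replicate 2, where both KFs libraries left are at 0 counts. Hist1h4n had the largest downward in tail, with 6, 0 and 6 counts in TFc and 0 in every TFs library, so no fold is given. Most windows of these members are shared with near copies, 93.1% of those of Hist1h2ao with a single other member.

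In heart, the transplant comparison gave 5 lower and 0 higher members (edgeR's quasi-likelihood test), against 9.33% lower and 18.3% higher among all genes, so the share of members past the threshold was close to that of all genes on the lower side. The median log2 fold change of the members was -0.59 (all genes 0.05), and 6 of the 55 had a positive value. At an unadjusted p under 0.05, 0 members were higher and 13 lower, and DESeq2 called 0 higher and 4 lower. The 5 were Hist1h2ab (-1.09), Hist1h2an (-1.05), Hist1h2bp (-2.55), Hist1h4m (-1.12) and Hist2h4 (-1.17). Hist2h4, with all its windows unique, was at 6.78, 7.28 and 8.99 CPM in HFc and 3.49, 3.17 and 3.57 CPM in HFs (edgeR adjusted p = 0.00339). No HFs library of Hist2h4 reached the lowest HFc library. The count depends on single libraries, since it was 1 without HFc replicate 2, 2 without HFs replicate 1 or HFs replicate 2, and 3 without HFc replicate 1 or HFc replicate 3.

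In tail, 4 members rose and 1 fell, against 11% and 5.53% of all genes. The median log2 fold change was 0.38 (all genes 0). The 4 were Hist1h1a (1.98), Hist1h1b (1.07), Hist1h2ab (1.25) and Hist1h2ak (1.17). Hist1h2ab was at 3.65, 2.98 and 2.85 CPM in TFc and 10.4, 6.86 and 5.39 CPM in TFs, with no overlap. Without TFs replicate 1, whose total was the highest of the tail group, 1 member rose and 1 fell, and the median was -0.09. Single libraries moved this count elsewhere too, to 1 higher without TFc replicate 1, 2 higher without TFc replicate 2 or TFc replicate 3, and 8 higher without TFs replicate 3.

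Across the 3 comparisons, 32 members rose in kidney and passed no threshold in heart or tail, 3 rose in kidney and tail, and 1 (Hist1h2ab) rose in both and fell in heart. A further 2 rose in kidney and fell in heart, 2 fell in heart alone, 1 (Hist2h2aa2) fell in kidney and tail, and 14 passed in no comparison. The difference between responses was then tested as an interaction at an adjusted p under 0.05. The kidney response exceeded the heart response in 41 of 55 members and was below it in 1, against 15.5% and 10.7% of all genes, with a median difference of 2.27 on the log2 scale (43 and 1 without KFs replicate 3). This difference was 2.71 for Hist1h1b (SE 0.51, edgeR adjusted p = 0.00128), 2.42 for Hist1h4b (SE 0.43, edgeR adjusted p = 8.50e-04) and -0.82 for Hist2h2aa2 (SE 0.12, edgeR adjusted p = 3.17e-04). The last depends on how reads were split with Hist2h2aa1. The pair summed to means of 45.8 and 31.7 CPM in KFc and KFs and to 59.9 and 32.7 CPM in HFc and HFs, which is the smaller proportional drop in kidney, the reverse of the order for Hist2h2aa2, and the difference of the pair was not tested.

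The kidney and tail responses differed in fewer members. The kidney response was higher in 11 and lower in 0 of 55, against 4.99% and 6.07% of all genes, with a median difference of 1.26 (edgeR's quasi-likelihood test). At an unadjusted p under 0.05 it was higher in 28 and lower in 0, and DESeq2 called 18 and 0. Among the 11 were Hist1h4b (1.82, edgeR adjusted p = 0.0118), Hist1h4d (1.49, edgeR adjusted p = 0.00830) and Hist1h1b (1.70, edgeR adjusted p = 0.0395), whereas Hist1h1a did not differ past the threshold (0.32, SE 0.62). This count rests on single libraries, with 25 without TFs replicate 1 and 24 without KFs replicate 3. It was 2 without TFs replicate 2 or TFs replicate 3, 3 without KFc replicate 1, KFc replicate 2 or TFc replicate 1, 3 higher and 1 lower without KFs replicate 2, 4 without TFc replicate 2, and 5 without KFc replicate 3 or TFc replicate 3. The heart response was below the tail response in 4 members and above it in 1, against 12.7% and 10.1% of all genes. Hist1h1a was among the 4 (-2.42, SE 0.62, edgeR adjusted p = 0.0115), and the 1 was Hist2h2aa2 (0.67, SE 0.13, edgeR adjusted p = 0.00162). Summed with Hist2h2aa1, the pair went from a mean of 39.8 to 22.8 CPM in tail and from 59.9 to 32.7 CPM in heart, and by these means the heart drop was no smaller in proportion than the tail drop. That order rests on TFs replicate 1 (33.6 CPM for the pair, against 18.4 and 16.5 CPM), and it was not tested. The heart-tail count was 1 above and 13 below without TFs replicate 3, and 1 above and 2 below without HFc replicate 2, HFc replicate 3, HFs replicate 2, TFc replicate 2, TFc replicate 3 or TFs replicate 1. These 3 comparisons share libraries.

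Between organs, the summed level of all members was lower in KFc than in HFc and TFc, although H2b alone was higher in KFc than in TFc (139.5 and 127 CPM on average). At an adjusted p under 0.05, 20 of 55 members were higher and 0 lower in HFc than in KFc (15.1% and 14% of all genes), and 19 were lower and 2 higher in KFc than in TFc (18.5% and 17.8%). A fit of only the groups compared called more members in each comparison of cultured groups, as given below. The 20 and the 19 were both smaller when single libraries of these groups were left out. Members higher in HFc than in KFc then numbered 10 and 8 without HFc replicates 1 and 2, 11 without HFc replicate 3, and 9, 8 and 7 without KFc replicates 1, 2 and 3. Members lower in KFc than in TFc numbered 9, 12 and 9 without KFc replicates 1, 2 and 3, and 10, 6 and 16 without TFc replicates 1, 2 and 3. HFc exceeded TFc in 7 members, with 0 lower (20.9% and 21% of all genes, 41.9% in either direction), or in 4 without TFc replicate 2. At an unadjusted p under 0.05, 31 members were higher and 0 lower in HFc than in KFc, and 10 and 0 in HFc against TFc, while DESeq2 called 22 and 0, and 8 and 0. After transplantation the order was another one. HFs was lower than KFs in 33 members and higher in 2 (19% and 14.2% of all genes), or 39 and 2 without KFs replicate 3, 17 and 1 without HFs replicate 2, and 18 and 3 without KFs replicate 2. A fit of only these groups called 9 in all. HFs was lower than TFs in 14 and higher in 4 (12.7% and 10.3%). KFs exceeded TFs in 3, with 0 lower (15.3% and 13.8% of all genes, 7 and 0 at an unadjusted p under 0.05, 6 and 0 by DESeq2), in 8 without KFs replicate 3, in 20 without TFs replicate 1 and in 1 without TFs replicate 3. HFs was lower than TFs in 1 and higher in 3 without TFs replicate 1, lower in 1 and higher in 4 without HFs replicate 2, and lower in 6 and higher in 3 without HFs replicate 1, so this comparison rests on single libraries. These comparisons share groups.

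The genes that act with the members were read from lists. Of 25 genes of DNA replication and S phase, 16 rose and 0 fell in kidney (median log2 fold change 1.27), 0 rose and 13 fell in heart (median -1.08), and 1 rose and 2 fell in tail (median 0.30). All 14 genes of G2 and mitosis rose in kidney (median 1.94), while 6 fell in heart and 1 rose in tail. Across all genes 14.7% rose in kidney, 9.33% fell in heart and 11% rose in tail. Without KFs replicate 3, 17 of the first list and 14 of the second rose in kidney. Without TFs replicate 1, no gene of either list rose in tail and 2 of the first fell, with medians of -0.06 and 0.09. By library, KFs replicate 2 had the highest S phase sum (939.5 CPM), TFs replicate 1 had the highest of the tail group (778 CPM) and HFs replicate 2 the lowest of all (314.5 CPM). Mki67, a marker of dividing cells, was at 79.9, 81.0 and 82.7 CPM in KFc and 359, 574.5 and 253 CPM in KFs (log2 fold change 2.28, edgeR adjusted p = 2.68e-05). Ccnb2, which encodes cyclin B2, rose by 2.29 in kidney and 1.03 in tail on the log2 scale, and its tail call was lost without TFs replicate 1. Rrm2, the small subunit of ribonucleotide reductase, fell by 2.68 in heart and fell by 2.25 in tail on the log2 scale. In kidney it was at 62.8, 69.4 and 67.1 CPM in KFc and 25.02, 55.9 and 23.7 CPM in KFs (log2 -0.93, edgeR adjusted p = 0.0209), lower in every library but under the fold limit. Rrm1, the large subunit, was likewise lower in kidney (log2 -0.76, edgeR adjusted p = 0.00897), against the direction of most of the list. Gins2, a part of the replicative helicase, fell by 1.78 in heart.

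**Figure D5:**
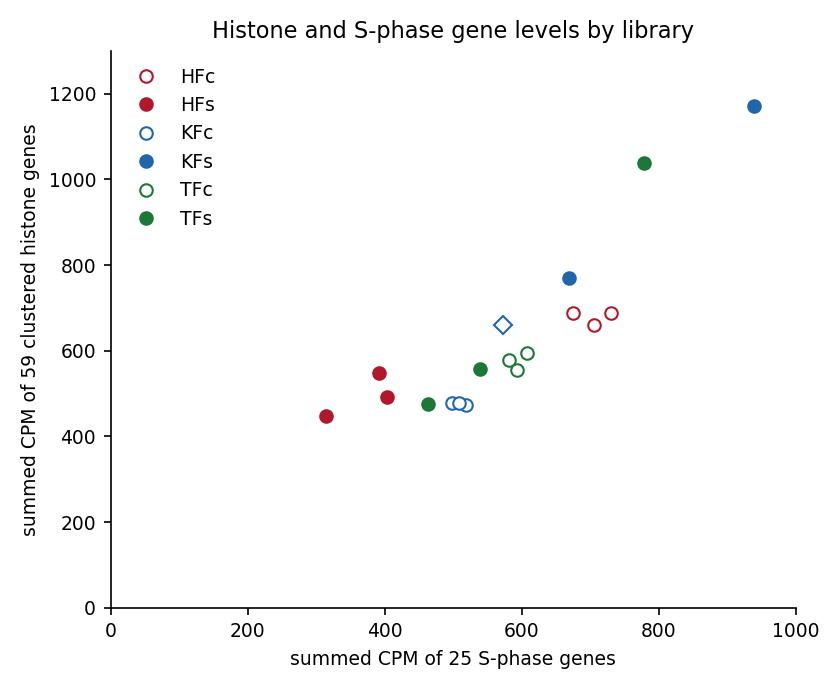
Summed level of all members against the summed level of the 25 S phase genes (CPM, linear axes), 1 point per library; open symbols are cultured and filled symbols transplanted libraries, the diamond is KFs replicate 3, and colours mark the organ. KFs replicate 2 (1170 and 939.5 CPM) and TFs replicate 1 (1038 and 778 CPM) lie at the upper right; no correlation was tested.

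The machinery that makes and reads histone mRNA gave few calls past the fold limit. Of 22 genes for histone transcription and mRNA processing, 1 rose in kidney (Snrpg, 1.55), 1 rose (Zfp473, 1.15) and 2 fell (Snrpb, -1.41, and Snrpf, -1.27) in heart, and none passed in tail. Without KFs replicate 3, 2 rose in kidney. Tested as an interaction, with no fold limit, the kidney response was above the heart response in 12 of the 22, against 15.5% of all genes. Slbp, which encodes the stem-loop binding protein, was at 27.8, 26.4 and 24.0 CPM in KFc and 39.0, 42.2 and 40.3 CPM in KFs. These groups do not overlap, and the difference (log2 0.64, SE 0.11, edgeR adjusted p = 2.15e-04) is under the fold limit. The log2 difference of Slbp was -0.24 in heart (edgeR adjusted p = 0.0735) and 0.28 in tail (edgeR adjusted p = 0.0519). That of Npat was 0.41 in kidney, 0.36 in heart and -0.01 in tail, all under the fold limit. Of 16 histone chaperones, 3 rose in kidney (Nasp 1.63, Mms22l 1.42 and Chaf1b 1.23), where 14.7% of all genes rose, or 6 of 16 without KFs replicate 3, where 12.9% did. In heart, where 9.33% of all genes fell, 3 fell (Asf1b -1.74, Chaf1b -1.18 and Chaf1a -1.14).

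Replacement histones are mostly, but not all, made throughout the cell cycle and from mRNAs with poly(A) tails. Their list gave 3 risers of 11 in kidney, where 14.7% of all genes rose (4 without KFs replicate 3, where 12.9% did). H2afz, which encodes H2A.Z, was at 17.5, 17.3 and 16.02 CPM in KFc and 46.4, 65.0 and 25.6 CPM in KFs (log2 fold change 1.43, SE 0.29, edgeR adjusted p = 7.77e-04). Cenpa, the centromeric H3, was at 5.29, 3.80 and 2.69 CPM in KFc and 13.3, 21.8 and 10.0 CPM in KFs (log2 fold change 1.94, SE 0.33, edgeR adjusted p = 1.91e-04), and it also rose in tail (1.05, edgeR adjusted p = 0.0199), a call lost without TFs replicate 1. Neither kidney pair overlaps. H2afy2, a macroH2A gene, rose by 1.07 in kidney on the log2 scale. H2afj changed by -1.08 in heart and -1.32 in tail, both past the threshold. H2afx, a replacement gene whose model does hold the stem-loop, differed by 0.70 in kidney, -0.67 in heart and -0.05 in tail, under the fold limit in each.

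The kidney rise was also read by the form of the gene model and by how far reads can be told apart. Among members whose model ends near the stem-loop, 15 of 21 rose and 1 fell (median log2 fold change 1.85), and among those with no sequence after the stop codon 9 of 10 rose (median 2.49). Of models that run on for more than 100 bases past the stem-loop, 12 of 18 rose (median 1.40), and of those with sequence after the stop codon but no stem-loop 2 of 6 rose (median 0.18). Hist1h1c, whose model runs on for 840 bases and holds a polyadenylation signal, and Hist1h2bc, with no stem-loop, belong to the last pair of forms. Other members went the other way. Hist2h2aa2, which fell, has a model that ends near the stem-loop. Hist1h1d and Hist1h2ac, which run on and hold a polyadenylation signal, rose (log2 fold change 1.55 and 2.27 without KFs replicate 3). In total 20 of 30 members with at least 50% unique windows rose and 18 of 25 of the others. When Hist1h1c, Hist1h2bc, Hist1h2be and Hist2h2aa2 were set apart, a choice made after their values were seen, the other 55 members summed to 206, 209 and 212 CPM in KFc and 560.4, 925 and 483 CPM in KFs (ratio 3.14, or 3.55 without KFs replicate 3). The 4 set apart summed to 272, 264 and 266 CPM in KFc and 209.5, 245.5 and 177 CPM in KFs (ratio 0.787).

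Markers of other cell types moved with transplantation, and their part in the results above was not tested. Of 10 proximal tubule markers, 9 rose in kidney and 10 in heart and tail. Their sum was 95.4 to 102 CPM in KFc and 56.7 to 119 CPM in KFs, 19.4 to 20.3 CPM in HFc and 115 to 1170 CPM in HFs, and 13.5 to 16.1 CPM in TFc and 119 to 303 CPM in TFs. The upper end in heart was HFs replicate 2 alone (1174 CPM, against 146 and 115 CPM in replicates 1 and 3). This library also had the lowest total of all members in HFs (447 CPM) and the lowest erythroid sum (0.132 CPM, against 38.4 and 42.5 CPM). The part of these differences in the heart results was not tested. The KFc sum was mostly Lrp2, at 99.2, 98.4 and 92.0 CPM in KFc and 45.2, 22.7 and 55.2 CPM in KFs, in contrast to the 9 that rose. Kap, Slc27a2 and Pck1 were at 0 in every cultured library. Of 8 other tubule markers, 4, 7 and 8 rose in kidney, heart and tail, and of 8 endothelial markers 4, 7 and 3, with 1 lower in kidney. Of 5 erythroid markers tested, 1, 5 and 5 rose. Of 7 leukocyte markers tested, 5 fell in kidney and 4 in tail, from a sum of 385 to 404 CPM in KFc to 13.8 to 139 CPM in KFs.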

How the data were processed

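RNA of 18 libraries, 3 in each of 6 groups, was analysed, with groups taken from the sample titles. The authors mapped and counted the reads with RSEM and Bowtie2, and the values deposited are expected counts for each gene, held as whole numbers that were not normalized. The paper names GRCm38, whereas the submitters' processing notes name mm9, and the annotation release is not given in the sources used here. Symbols and gene types came from GENCODE release 21 on GRCm38, which held 37607 of 38924 identifiers.

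Members and gene lists were chosen with earlier results of these data known. The tests were run with edgeR 4.0.16 under R 4.3.3, using filterByExpr, TMM and the quasi-likelihood test in a single fit of all 6 groups. The paper names edgeR but not which test. Benjamini-Hochberg adjustment covered the 16577 genes that passed the filter. Transplant comparisons used an adjusted p under 0.05 and a log2 fold change past 1, and organ and response comparisons used the adjusted p alone. Totals, shares and plots came from Python 3.11.15, numpy 2.4.6, pandas 2.3.3 and matplotlib 3.10.9. Tested on simulated data with changes placed in KFs against KFc, the method found 74 of 100 genes changed 2-fold and 97 of 100 changed 4-fold, with 11 false calls among 16213 genes. The changed genes were drawn only from those above a set mean level, and were called by adjusted p without the fold limit. Each gene had the same spread in every group. These rates therefore do not cover members of low level, such as Hist1h4j and Hist1h2bp (means of 0.512 and 1.11 CPM over all libraries). A gene at or under 3 counts in a library was treated as at the floor, which covers counting error only, since no molecular identifiers are named. Replicates of each group differed by more than sampling noise, and unequally so. Chi-square per gene between libraries of a group was 4.74 to 7.65 in cultured groups, 11.5 to 88.7 in HFs and TFs, and 74.7 to 258 in KFs. The single fit shares its estimate of the spread across groups, so adjusted p-values do not follow this difference. Its part in the calls was not tested. Windows of 75 bases were compared across all GENCODE transcripts.

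Levels by library are given for the 2 members of each class with the highest mean level per kb of transcript, and levels or counts in that comparison for the members with the largest rise and fall in each transplant comparison. List genes were named if among the 2 with the largest rise or fall past the threshold, with Slbp, Npat, Cenpa and H2afz, and some have a log2 value only. Other members are named with a value. The alternatives were the test of DESeq2 1.42.0, its size factors or the library size alone in edgeR, a filter on a mean of 10 counts or none, a block for the replicate number, separate fits of the groups compared, other fold limits, members with mostly unique windows, and each replicate left out. The total without 4 members was added after seeing the data.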

Additional observations from a re-analysis of the deposited data

Results flagged for a closer look

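Responses to transplantation that differed between organs by an interaction test (edgeR's quasi-likelihood test, Benjamini-Hochberg adjustment) were collected. They numbered 42 of 55 members between kidney and heart (26.2% of all genes), 11 between kidney and tail (11.1% of all genes) and 5 between heart and tail (22.8% of all genes). The last count was 1 above and 13 below without TFs replicate 3. These are differences of log2 fold changes, and the comparisons share libraries.

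The kidney response minus the tail response was 1.70 for Hist1h1b and 1.82 for Hist1h4b. The heart response minus the tail response was -2.42 for Hist1h1a and 0.67 for Hist2h2aa2.

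The kidney response minus the heart response was positive for most of the members described in full. It was 2.74 for Hist1h1a and 2.71 for Hist1h1b among the H1 genes, and 2.21 for Hist1h2ap in H2a. It was 2.34 for Hist1h2bk and 5.99 for Hist1h2bp in H2b, where Hist1h2bp is low, with 2 HFs libraries under the floor of 3 counts. It was 2.27 for Hist1h3b and 1.86 for Hist2h3b in H3, and 2.42 for Hist1h4b, 0.93 for Hist1h4h and 3.72 for Hist1h4j in H4. For Hist2h2aa2 it was -0.82, but this gene cannot be told apart from Hist2h2aa1 by its reads. For the means of the summed pair the proportional drop was smaller in kidney than in heart, and in heart it was no smaller than in tail, the latter resting on TFs replicate 1. Neither was tested.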

How the results depend on the processing

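The kidney count of 39 members past the threshold kept between 33 and 40 when 1 library was left out. The same range was 1 to 6 for HFs against HFc, 2 to 9 for TFs against TFc, 4 to 7 for HFc against TFc, 8 to 19 for KFc against TFc, 7 to 11 for HFc against KFc, 4 to 22 for HFs against TFs, 1 to 20 for KFs against TFs, 18 to 41 for HFs against KFs, 2 to 25 for the kidney against the tail response, 3 to 14 for heart against tail and 32 to 44 for kidney against heart. The log2 ratio of the all-members total ranged from -0.53 to -0.38 in heart, 0.58 to 1.02 in kidney and -0.15 to 0.47 in tail.

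Counts moved under other settings as follows. Without a fold limit, 12 members passed in heart and 8 in tail. With DESeq2 size factors or without a filter, 3 passed in heart. With a fold limit between organs, 2 passed for HFc against TFc and 0 for KFs against TFs. A fit of only the groups compared gave 15 for HFc against TFc, 36 for KFc against TFc, 37 for HFc against KFc, 7 for HFs against TFs, 0 for KFs against TFs, 9 for HFs against KFs, 3 for the kidney against the tail response and 8 for heart against tail. Without a filter, 13 passed for HFc against KFc and 3 for the heart against the tail response. Library size alone gave 34 for HFs against TFs. DESeq2 gave 6 for KFs against TFs and 18 for the kidney against the tail response. The cause of these shifts was not tested. Without Hist1h1c, Hist1h2bc, Hist1h2be and Hist2h2aa2, the kidney log2 ratio of totals was 1.65 in place of 0.86.

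The replicate number was also fitted as a block. Samples with the same number did not deviate together (residual correlation of -0.042 to 0.045). The paper says that cells left over were replated as the controls, but not whether equal numbers mark the same preparation. With the replicate block, 4 members passed in heart, 39 in kidney, 4 in tail, 13 for HFc against KFc and 10 for HFs against TFs.

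Small differences changed sign in places. Leaving out 1 library gave log2 values in heart from -0.14 to 0.38 for Hist1h1b, -0.22 to 0.33 for Hist1h2ap, -0.37 to 0.21 for Hist2h3b and -0.40 to 0.28 for Hist1h4j. It gave -0.17 to 0.0402 for Hist1h1c in kidney, and in tail -0.47 to 0.33 for Hist1h4b, -1.01 to 0.57 for Hist1h2bp and -0.59 to 0.70 for Hist1h2bq. Hist1h2ap in heart was at 0.0081 with DESeq2 size factors and 0.0082 with DESeq2. Hist2h3b in heart was at 0.0421 with DESeq2 size factors, 0.0374 with DESeq2, 0.0236 without a filter, 0.0198 with a mean of at least 10 counts and 0.0324 in the fit of only the groups compared. Hist1h1c in kidney was at 0.0407 with library size alone. Of the other single values, 765 kept direction and side of the threshold, 9 passed it anew, 7 lost it and 1 moved. The counts of members and the log2 ratios of the all-members total were less stable. Of these, 147 values stayed near the main value and 69 moved past a set limit. Members took at most 0.117% of a library, and at low levels such as those of Hist1h4j and Hist1h2bp the counts limit the precision.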

Other observations

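Hist1h2ba, the testis type of H2b, had 65 counts in KFs replicate 2 and 0 in the other 17 libraries, and Hist1h2aa had 2 counts in KFs replicate 1 and 0 elsewhere. Hist2h3c1 was at 0 in every library, but 0% of its windows are unique and 100% are shared with Gm20634. Its 0 may thus depend on how reads were shared out. By counting error alone, a count of 0 allows up to 3 counts in a library.

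Of the 17 tested members that did not rise in kidney, 7 have under 50% unique windows. Among those with more, Hist3h2a stayed near its cultured level (log2 -0.06, edgeR adjusted p = 0.780), as did Hist1h1c (log2 -0.01), and Hist1h4i (log2 0.42, edgeR adjusted p = 0.252) did not pass the test.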
